A study of Rattus norvegicus with 4 samples.

Results

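Cholesterol synthesis was examined through 8 genes, *Hmgcs1*, *Idi1*, *Fdft1*, *Sqle*, *Lss*, *Cyp51*, *Dhcr7* and *Insig1*, in rat embryonic stem cells (ESCs) with and without intact *Thop1*. The genes were chosen by name, with earlier results of these data known, and all 8 were found among the 34773 genes of the table. The first 7 code for enzymes of the pathway. The last, *Insig1*, codes for a protein that holds the pathway in check, and none of the 8 codes for a protein of cholesterol uptake. The data are 4 libraries of poly(A) RNA. The control, labelled WT, is 1 library of DA-5-3 GFP, a diploid rat ESC line that carries a *Rex1*-GFP reporter, and the other 3 are the *Thop1*-KO GFP subclones #1, #2 and #3. Each subclone grew from a single puromycin-resistant colony of DA-5-3 GFP after transfection with Cas9 and a guide against *Thop1*, the gene of a metallopeptidase that cleaves short peptides. All libraries thus carry the reporter. The cells were kept on feeder cells in 2i/LIF medium, which holds 2 kinase inhibitors and the cytokine LIF. The labels give no day of harvest, passage or age, and the description deposited with the series calls the cells haploid.

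Cells make cholesterol from acetyl-CoA. The first steps lead through mevalonate to farnesyl diphosphate, the later ones join 2 farnesyl units to squalene, close it to the ring of lanosterol and trim that ring to cholesterol. The genes of most of these enzymes are switched on together by SREBP transcription factors. When the membranes of the endoplasmic reticulum are rich in sterol, INSIG proteins hold SCAP, the escort of SREBP, in place and the genes are read less. Rapidly dividing cells such as ESCs need sterol for new membranes and can make it or take it up from lipoproteins in the medium.

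Since members of this pathway are known to share control elements near their start sites, the stretches upstream of 4 genes that the results turn on are shown first. They are *Hmgcs1* and *Idi1*, which varied most between subclones, *Lss*, the one member that passed the test, and *Insig1*, which was at the detection floor. The 250 bases before each start site are from RefSeq (build GRCr8, chr2:53382054-53382303 on the plus strand for *Hmgcs1*, chr17:66547525-66547774 on the minus strand for *Idi1*, chr20:12118231-12118480 on the minus strand for *Lss* and chr4:8057770-8058019 on the minus strand for *Insig1*). Capitals mark CCAAT (the NF-Y box), GGGCGG (the GC box bound by SP1) and CACGTG (the E-box), each on either strand, so that ATTGG and CCGCCC are also in capitals.
*Hmgcs1*: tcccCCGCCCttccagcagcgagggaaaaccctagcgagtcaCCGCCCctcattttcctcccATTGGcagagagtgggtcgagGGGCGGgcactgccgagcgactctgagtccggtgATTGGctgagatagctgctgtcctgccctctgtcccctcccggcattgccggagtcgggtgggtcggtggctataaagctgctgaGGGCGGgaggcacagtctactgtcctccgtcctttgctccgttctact
*Idi1*: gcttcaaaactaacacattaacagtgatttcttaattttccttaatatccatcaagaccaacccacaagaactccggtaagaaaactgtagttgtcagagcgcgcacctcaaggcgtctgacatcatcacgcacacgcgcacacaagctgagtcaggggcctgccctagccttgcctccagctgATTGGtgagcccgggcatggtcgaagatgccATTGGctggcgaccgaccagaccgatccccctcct
*Lss*: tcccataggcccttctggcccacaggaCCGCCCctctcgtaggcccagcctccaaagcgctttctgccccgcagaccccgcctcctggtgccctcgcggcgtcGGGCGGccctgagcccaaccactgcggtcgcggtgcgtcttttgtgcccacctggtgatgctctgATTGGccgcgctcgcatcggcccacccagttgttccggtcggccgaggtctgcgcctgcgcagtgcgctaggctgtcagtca
*Insig1*: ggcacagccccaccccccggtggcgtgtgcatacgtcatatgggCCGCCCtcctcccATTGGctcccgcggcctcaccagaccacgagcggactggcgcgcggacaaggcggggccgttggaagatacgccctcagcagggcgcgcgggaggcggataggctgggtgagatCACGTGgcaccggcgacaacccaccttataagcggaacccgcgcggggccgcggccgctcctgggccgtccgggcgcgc

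RefSeq promoters of 300 bases, from 250 before to 50 after the start, were at hand for 6 members and not for *Fdft1* and *Sqle*. CCAAT was found in 4 of these 6, with 2 copies each in *Hmgcs1* and *Idi1* and 1 each in *Lss* and *Insig1*, and in 37.5% of all 33469 promoters of that length. It was also found in 10 of 11 promoters at hand of other cholesterol synthesis enzymes (90.9%), a set that holds *Lbr* and lacks *Pmvk*, unlike the 11 enzymes tested further on. GGGCGG was found in 5 of 6 members, all but *Idi1*, and in 33.1% of all promoters or 62.3% of those of the genes tested. CACGTG was found in *Insig1* alone (1 of 6, against 6.42% of all promoters). TCACNCCAC, a form of the sterol regulatory element, was found in none of the 6 and in 1.12% of all promoters. With so low a share most sets of 6 would hold none, so nothing is read from this. The matches are descriptions of these windows and carry no measurement of binding.

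In short, 7 of the 8 members were detected and 1 of them, *Lss*, passed the test between the genotypes, whose level in *Thop1*-KO GFP was 4.14-fold that of the control. The other 6 detected members did not pass it. Over all genes tested, 13.8% passed it, 8.62% as higher in *Thop1*-KO GFP. Each of the 7 had its highest subclone level in #2, as did 39.5% of all genes tested. When #2 was left out, *Hmgcs1*, *Idi1*, *Fdft1* and *Sqle* were called lower in *Thop1*-KO GFP, in a fit that called 16.8% of all genes lower. Without #1 or without #3, 0 members were called lower, in fits that called only 710 of 14824 and 103 of 14761 genes lower. *Insig1* had no more than 1 count in any library.

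Counts on genes summed to between 15405499 and 17936544 per library, and all pairs of libraries differed by more than sampling noise, by 22.4 to 66.7 per degree of freedom of a chi-square test between subclones and by 125 to 184 between a subclone and the control. *Thop1* itself was at 110, 92.5 and 149 TMM-normalized CPM (counts scaled to a common library size) in #1, #2 and #3 against 370 in the control (log2 fold change -1.66, SE 0.29, adjusted p = 0.0187 by edgeR's quasi-likelihood test, where SE is the standard error), so the transcript was lower in each subclone and not absent. The summed level of 8 ESC markers, among them *Pou5f1*, *Sox2* and *Nanog*, was between 5734 and 7660 CPM. Most of that sum is *Pou5f1*, and single markers differed. *Fgf4* was higher in *Thop1*-KO GFP (log2 fold change 3.37, adjusted p = 0.00678 by edgeR). *Utf1* was lower (log2 fold change -1.51, adjusted p = 0.0206 by edgeR). There is 1 control library, so only the subclones give a spread, the smallest p of an exact one-sided permutation test is 0.25, and a difference between genotypes cannot be told apart from one between that culture and the others. Of 15028 genes tested, 13.8% had an adjusted p under 0.05 and are named called here, 8.62% as higher and 5.17% as lower in *Thop1*-KO GFP. Against this background stood 1 of 7 members called higher and 0 called lower by edgeR. At an unadjusted p under 0.05 edgeR also gave 0 lower, and DESeq2 gave 1 (0 after adjustment). The share of all genes at the unadjusted threshold was not counted. The 7 had a median log2 fold change of -0.34, against 0.06 over all genes tested. The share of the libraries made up of other cell types was not measured, and in bulk RNA fewer cells of a type and less RNA per cell cannot be told apart.

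Gene positions below are those of the deposited table, whose build is not given in the sources used here, and each member is annotated as protein coding. *Hmgcs1* (ENSRNOG00000016552, chromosome 2 from 52431601 to 52445055 on the plus strand) codes for HMG-CoA synthase, which joins acetyl-CoA and acetoacetyl-CoA near the start of the pathway. Its TMM-normalized level was 50.9 CPM in #1, 144 CPM in #2, 34.2 CPM in #3 and 127 CPM in DA-5-3 GFP. The control was thus close to #2 and above #1 and #3, and it lay inside the range of the subclones. The level in #2 was 4.21-fold that in #3, the widest spread between subclones of the 7 members. The log2 fold change was -0.73 (SE 0.70, adjusted p = 0.487 by edgeR), a difference smaller than its error allowed to be called. With #2 left out it was -1.57 (SE 0.26, adjusted p = 0.000521), and #1 and #3 had 0.402 and 0.270 of the control's level.

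*Idi1* (ENSRNOG00000016690, chromosome 17 from 57976268 to 57984036 on the minus strand) codes for the isomerase that turns isopentenyl diphosphate into dimethylallyl diphosphate. It was at 8.53 CPM in #1, 18.7 CPM in #2, 9.07 CPM in #3 and 26.1 CPM in the control. Here the control was above all 3 subclones, with #2 nearest to it. The log2 fold change was -1.11 (SE 0.48, adjusted p = 0.160 by edgeR), the most negative of the members, and did not pass the test. It was -1.57 (SE 0.31, adjusted p = 0.00183) with #2 left out. *Idi1* had the fewest counts of the 7, 143 to 388 per library, and 100 bases of it overlap *Wdr37* on the opposite strand, a gene with 112 to 210 counts, so that reads of that stretch are uncertain.

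*Fdft1* (ENSRNOG00000021314, chromosome 15 from 46339249 to 46367302 on the minus strand), the gene of squalene synthase, marks the point where the pathway turns from isoprenoids to sterols. It was at 160 CPM in #1, 249 CPM in #2, 142 CPM in #3 and 262 CPM in the control. As for *Idi1*, the control was above every subclone, but #2 was at 0.952 of the control, and at 1.06 of it when scaled by library size alone, which put the control inside the range. The log2 fold change was -0.51 (SE 0.34, adjusted p = 0.321 by edgeR), and -0.79 (SE 0.20, adjusted p = 0.00740) without #2. *Idi1* and *Fdft1* were the 2 of 7 members with the control above all subclones, and 37.6% of all genes tested had it there with TMM scaling.

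*Sqle* (ENSRNOG00000009550, chromosome 7 from 99609191 to 99624732 on the plus strand) codes for squalene epoxidase, a rate-limiting enzyme of the pathway, which adds the first oxygen to squalene. Its level was 70.4 CPM in #1, 130 CPM in #2, 74.5 CPM in #3 and 116 CPM in the control, so that #1 and #3 were alike and the control was next to #2. The log2 fold change was -0.34 (SE 0.38, adjusted p = 0.553 by edgeR). Without #2 it was -0.68 (SE 0.22, adjusted p = 0.0257).

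*Lss* (ENSRNOG00000054549, chromosome 20 from 12842884 to 12870497 on the minus strand), the gene of lanosterol synthase, which closes the sterol ring in the step after *Sqle*, went the other way. It was at 42.4 CPM in #1, 53.1 CPM in #2, 39.2 CPM in #3 and 10.8 CPM in the control, from 711, 939, 704 and 161 counts. All 3 subclones lay above the control, at 44.9 ± 7.30 CPM (SD, n = 3), and were within 1.36-fold of each other. The log2 fold change was 2.05 (SE 0.34, adjusted p = 0.0172 by edgeR), and 1.91 (adjusted p = 0.000436) without #2. Without #3 the value was 2.14 (SE 0.50, adjusted p = 0.0551), so that the call was lost with a change about as large and a larger error, in a fit that called 354 genes higher and 103 lower. *Lss* was the 1 member of 7 with the control below all subclones, which held for 38.1% of all genes tested. It overlaps no other gene of the table.

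*Cyp51* (ENSRNOG00000007234, chromosome 4 from 27175243 to 27194018 on the plus strand), the lanosterol demethylase of the cytochrome P450 family, was at 130 CPM in #1, 232 CPM in #2, 114 CPM in #3 and 166 CPM in the control. The control lay between #2 and the other subclones, and the log2 fold change was -0.07 (SE 0.41, adjusted p = 0.921 by edgeR). *Dhcr7* (ENSRNOG00000020776, chromosome 1 from 217018916 to 217034904 on the plus strand), the reductase of the last step to cholesterol in one branch of the pathway, was at 112 CPM in #1, 218 CPM in #2, 119 CPM in #3 and 123 CPM in the control. For *Dhcr7* the control stood beside #1 and #3, and #2 alone was apart, 1.77-fold over the control. Its log2 fold change was 0.28 (SE 0.42, adjusted p = 0.656). Without #2 the values were -0.44 (adjusted p = 0.108) for *Cyp51* and -0.09 (adjusted p = 0.761) for *Dhcr7*, and neither passed the test.

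*Insig1* (ENSRNOG00000006859, chromosome 4 from 342302 to 350515 on the plus strand), the sterol-dependent anchor of SCAP and itself a well-known target of SREBP, had 0, 0, 1 and 0 counts in #1, #2, #3 and the control. All are under the floor of 3 counts, so no fold was computed and the gene was not tested. The deposited table has the gene on the plus strand and RefSeq (GRCr8) has it on the minus strand, and the part of the annotation in these counts was not tested. *Insig2*, its paralogue with the same role, was at 11.3, 8.09, 9.18 and 3.03 CPM in #1, #2, #3 and the control, with a log2 fold change of 1.65 (adjusted p = 0.0515 by edgeR). Among the alternative settings it was called higher in 6 and not called in 6.

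**Figure D1:**
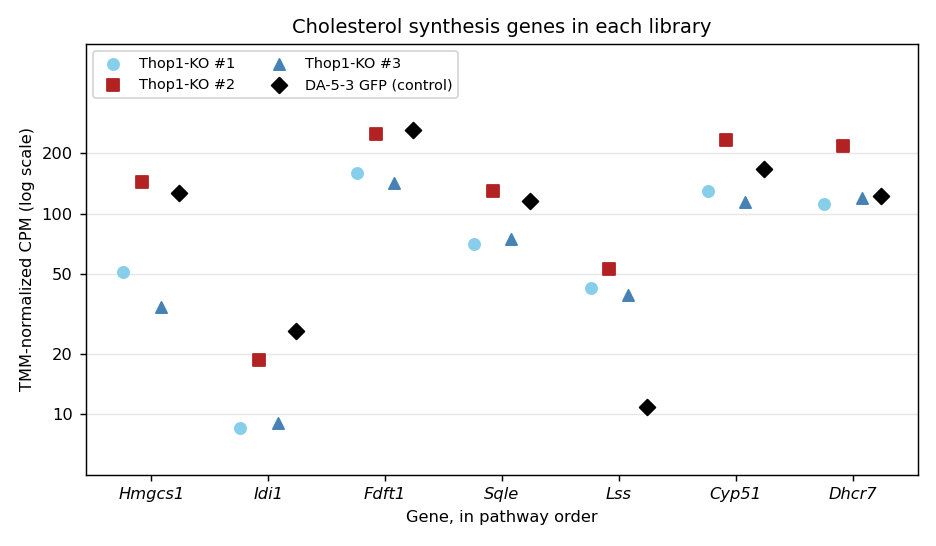
TMM-normalized CPM on a log axis for the 7 detected members in each of the 4 libraries, 1 point per library. The red squares of #2 are the highest subclone for each gene, and the black diamond of the control is below all subclones for *Lss* alone.

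Levels per length, as the deposited FPKM, put the members in nearly the same order in all libraries. In the subclones the mean was 57.4 FPKM for *Fdft1*, 53.7 for *Dhcr7*, 46.8 for *Cyp51*, 33.1 for *Sqle*, 23.4 for *Hmgcs1*, 9.80 for *Lss* and 4.24 for *Idi1*. Within single libraries, *Cyp51* was above *Sqle*, *Sqle* above *Hmgcs1* and *Hmgcs1* above both *Lss* and *Idi1* in all 4. *Fdft1* was above *Cyp51* in all 4 too. *Dhcr7* was level with *Fdft1* in #2 (78.3 and 78.0 FPKM), above *Cyp51* in the subclones and below it in the control, so the order of these neighbours did not hold throughout. *Lss* was above *Idi1* in each subclone. *Lss* and *Idi1* changed places in the control, since *Lss* was at 9.33, 11.6 and 8.46 FPKM in the subclones against 2.37 in the control, and *Idi1* at 3.01, 6.58 and 3.15 against 9.16.

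Subclone #2 was the highest subclone for all 7 detected members, with TMM and with each of the other 3 scalings tried. With TMM this was so for 39.5% of all genes tested. It was at least 1.5-fold over both others for 6 of 7, all but *Lss*, against 12.3% of all genes. The members were chosen with earlier results of these data known, so these shares are given as description. On the log2 scale, the level in #2 exceeded the geometric mean of #1 and #3 by 1.79 for *Hmgcs1*, 1.09 for *Idi1*, 0.93 for *Cyp51*, 0.92 for *Dhcr7*, 0.84 for *Sqle*, 0.73 for *Fdft1* and 0.38 for *Lss*. The median of the 7 was 0.92, and over 14669 genes the median was 0.01 with quartiles of -0.40 and 0.43. The subclones #1 and #3 were much closer to each other, with ratios of #1 to #3 from 0.937 for *Dhcr7* to 1.14 for *Cyp51* in 6 of the members and 1.49 for *Hmgcs1*. The counting error of 1 library was 1.51% to 8.36% of a member's count, so the excess of #2 was larger than counting error, but with 1 library per subclone it could not be tested. Summed over the members, the level was 574 CPM in #1, 1045 CPM in #2, 533 CPM in #3 and 831 CPM in the control.

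**Figure D2:**
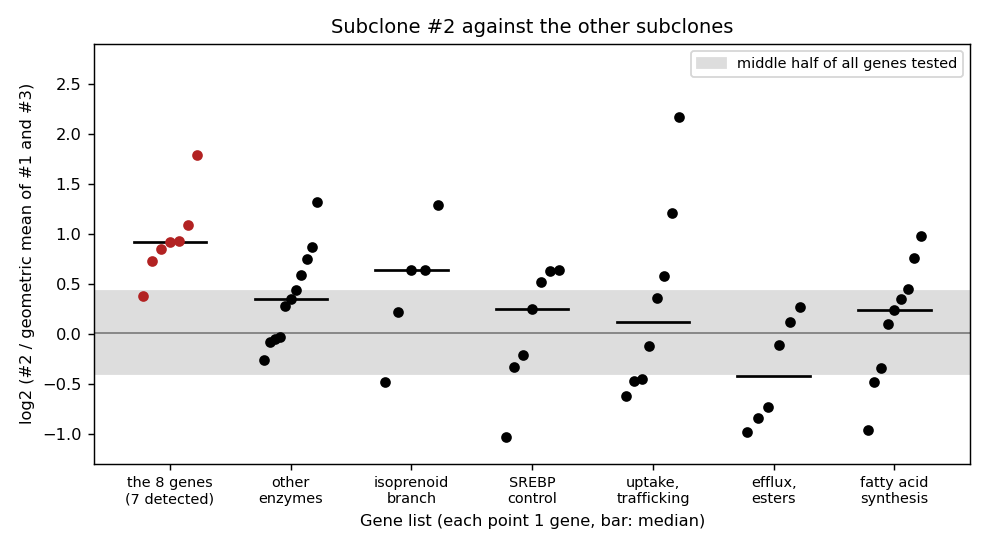
Difference between #2 and the geometric mean of #1 and #3 on the log2 scale, 1 point per gene and a bar at the median of each list, with the range between the quartiles of all genes tested in grey. The 7 detected members have a median of 0.92, and 6 of them lie above the grey band.

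Markers of fibroblasts, the kind of cell used as feeders, moved with #2 as well. Of 11 such markers listed, 8 were tested, and #2 was the highest subclone for 8 of these 8, against 39.5% of all genes tested. Their summed level was 439 CPM in #1, 864 CPM in #2, 570 CPM in #3 and 260 CPM in the control, most of it from the collagens *Col1a1* and *Col5a1*, while *Thy1*, *Dcn* and *Lum* were at 0 in every library. The control was below all subclones for 6 of these 8 markers and for 1 of the 7 members, *Lss*. That held for 38.1% of all genes tested. The summed ESC markers, most of it *Pou5f1*, were at 6942, 5734, 6947 and 7660 CPM in #1, #2, #3 and the control. For 3 of these 8, near the share of 39.5% over all genes, #2 was the highest subclone. Markers of primitive endoderm, nearly all of it *Lama1*, summed to 1223, 1367, 1785 and 852 CPM in #1, #2, #3 and the control. The part of these cells in the levels of the members was not tested. The marker lists too were chosen with earlier results of these data known.

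Leaving out #2 changed what the comparison of genotypes gave for the members. As #2 was the highest subclone for each of the 7, a downward shift of their log2 fold changes follows from leaving it out. Called lower in *Thop1*-KO GFP were then 4 of 7, *Hmgcs1*, *Idi1*, *Fdft1* and *Sqle*, and called higher was 1, *Lss*. That fit called 16.8% of 14704 genes lower and 21.1% higher, far more than the fit of all libraries, so the background of the count is also higher. The median log2 fold change of the members was -0.68, against 0.03 over all genes. The spread then rests on 2 subclones, #1 and #3, the pair of libraries that differed least (22.4 per degree of freedom). For the 4 genes the adjusted p by edgeR was 0.223 to 0.781 without #1 and 0.368 to 0.815 without #3. The 4 genes called lower stand on both sides of farnesyl diphosphate, and *Lss* lies between *Sqle*, which was lower, and *Cyp51*, which was not called.

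**Figure D3:**
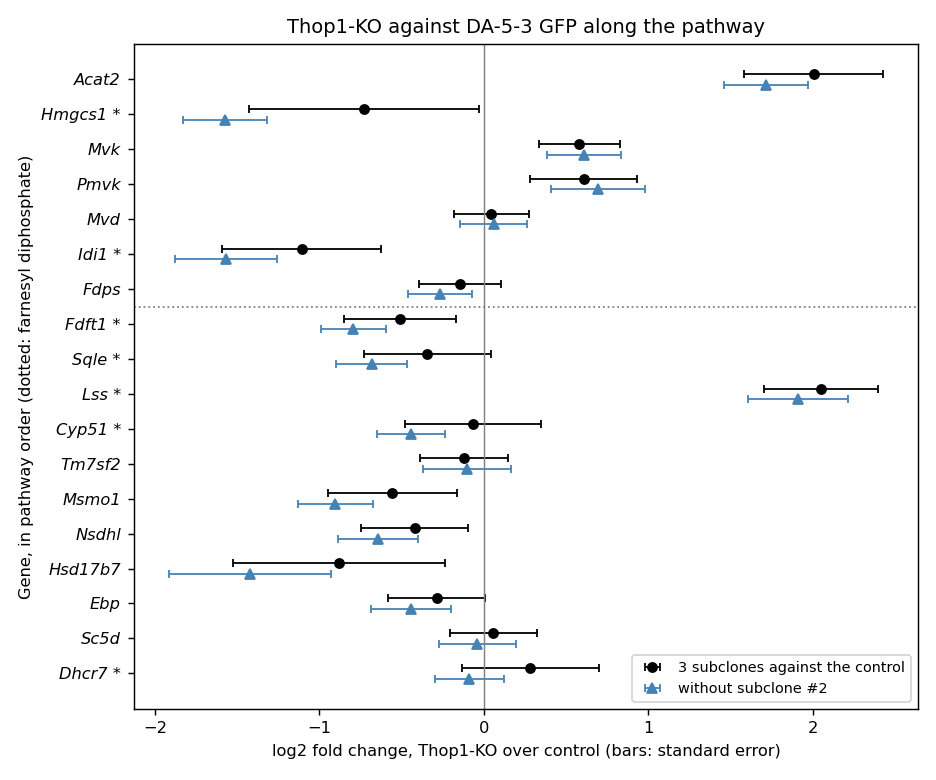
Log2 fold change of *Thop1*-KO GFP over DA-5-3 GFP for the members and other enzymes in pathway order, with the members starred, black circles for all subclones, blue triangles without #2 and bars of 1 standard error. *Lss* and *Acat2* stand near 2, and most enzymes after farnesyl diphosphate lie further left without #2.

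The other enzymes of the pathway were read from a list of 12, of which 11 were in the table and tested. Of these 1 was called higher, *Acat2*, and 0 were called lower by edgeR, with a median log2 fold change of -0.12. The shares over all genes tested were 8.62% higher and 5.17% lower. *Acat2*, the thiolase of the first step, was at 114 CPM in #1, 174 CPM in #2, 94.4 CPM in #3 and 31.7 CPM in the control. All subclones were above the control, with a log2 fold change of 2.005 (SE 0.42, adjusted p = 0.0292). Without #2, *Acat2* was called higher and *Msmo1* and *Hsd17b7*, which act on sterols after *Lss*, were called lower. That fit called 21.1% of all genes higher and 16.8% lower. Subclone #2 was the highest subclone for 7 of the 11 and at least 1.5-fold over both others for 3. Over all genes tested the shares were 39.5% and 12.3%. An example is *Msmo1*, the methyl sterol oxidase, at 62.1 CPM in #1, 105 CPM in #2, 53.4 CPM in #3 and 108 CPM in the control.

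Beside the sterol branch, farnesyl diphosphate also feeds other isoprenoids. None of 5 genes for ubiquinone, dolichol and geranylgeranyl diphosphate was called by edgeR with all libraries, against 13.8% of all genes tested. Without #2, 2 were called lower, in a fit that called 16.8% of all genes lower. *Pdss1*, of the ubiquinone branch, had the most negative value (log2 fold change -2.01, adjusted p = 0.0582). At an unadjusted p under 0.05 edgeR gave 1 lower and 0 higher. DESeq2 called 1 lower after adjustment, and 1019 of 19903 genes with counts over the whole series.

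Of 7 genes that control SREBP, 0 were called in either direction by edgeR, against 13.8% of all genes tested. By edgeR 2 were higher at an unadjusted p under 0.05. DESeq2 called 2 higher after adjustment, *Srebf2* (adjusted p = 0.0329) and *Insig2* (adjusted p = 0.0170). Over the whole series DESeq2 called 1987 of 19903 genes with counts higher. *Srebf2*, the gene of the SREBP that acts chiefly on cholesterol synthesis, was at 443, 367, 410 and 222 CPM in #1, #2, #3 and the control. *Srebf1*, whose products act chiefly on fatty acid synthesis, was at 391.8, 197.2, 413.3 and 212.6 CPM in the same order. The subclones were thus above the control for *Srebf2*, whereas for *Srebf1* #2 was below it, with log2 fold changes of 0.87 (adjusted p = 0.0558) and 0.65 (adjusted p = 0.320). *Scap*, the escort, was at 50.3, 74.3, 53.7 and 75.8 CPM, with #2 level with the control (log2 fold change -0.35, adjusted p = 0.441). Without #2, 3 of the 7 were called higher, *Srebf1*, *Srebf2* and *Insig2*, in a fit that called 21.1% of all genes higher, and none of these 3 passed the test without #1 (adjusted p of 0.406, 0.0844 and 0.0695) or without #3 (0.577, 0.217 and 0.184).

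For uptake and trafficking, 8 genes were tested, and 1 was called higher and 0 lower by edgeR. Over all genes tested, 8.62% were called higher and 5.17% lower. *Npc1*, which exports cholesterol from lysosomes, was at 61.3 CPM in #1, 40.2 CPM in #2, 49.0 CPM in #3 and 7.27 CPM in the control (log2 fold change 2.79, adjusted p = 0.0111), and it overlaps *Rmc1* on the opposite strand by 406 bases. *Npc1* was thus far lower in the control than in any subclone, and #2 was its lowest subclone, unlike the 7 members.

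In the lists of SREBP control, uptake, efflux and fatty acid synthesis, and among the 11 other enzymes, 0 genes were lower at an unadjusted p under 0.05. This held by edgeR and by DESeq2, while the isoprenoid list had 1 lower by each. The share of all genes at that threshold was not counted, so nothing is read from the 0. Of 6 tested genes for efflux and esters, 1 was called higher by edgeR and 0 lower, and DESeq2 called 2 higher. *Soat1*, which makes cholesteryl esters for storage, was at 56.8 CPM in #1, 49.4 CPM in #2, 50.03 CPM in #3 and 8.82 CPM in the control (log2 fold change 2.56, adjusted p = 0.00832). Of 9 tested genes for fatty acid synthesis, the other arm of the SREBP targets, 2 were called higher and 0 lower by edgeR and 5 higher by DESeq2. Over the whole series edgeR called 8.62% of genes higher, and DESeq2 called 1987 of 19903 genes with counts. The control was below all subclones for 8 of them, against 38.1% of all genes tested. *Acaca*, the acetyl-CoA carboxylase of the first step, was at 36.9, 62.8, 37.2 and 7.74 CPM in #1, #2, #3 and the control (log2 fold change 2.56, adjusted p = 0.0203). *Scd2*, a desaturase, was at 5687, 4022, 5535 and 1871 CPM (log2 fold change 1.44, adjusted p = 0.0212), a call lost without #3 at a similar value (1.38, adjusted p = 0.0694) and under a correction for gene length (1.07, adjusted p = 0.0574).

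**Figure D4:**
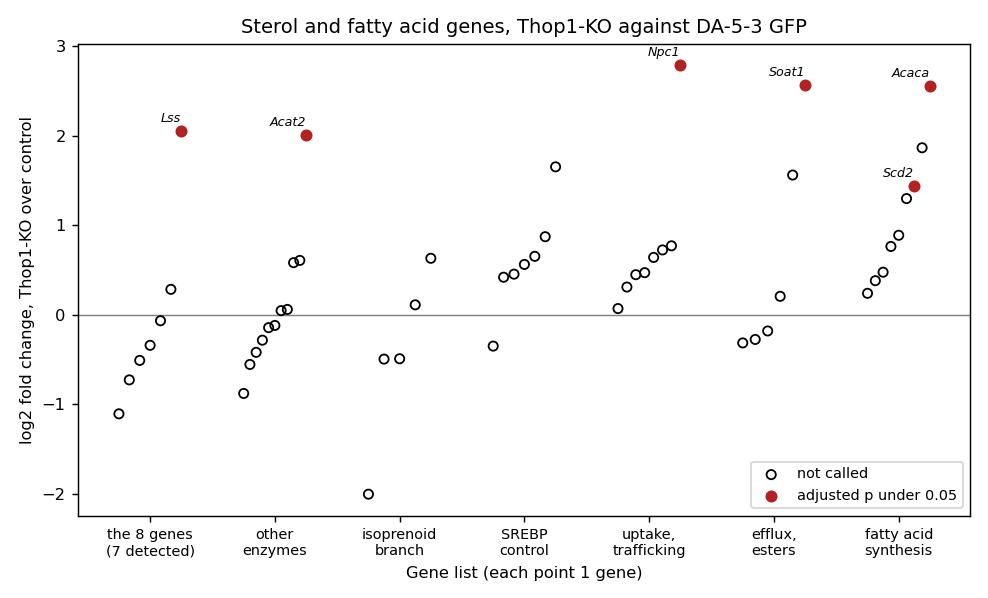
Log2 fold change of *Thop1*-KO GFP over DA-5-3 GFP for each tested gene of the 7 lists, 1 point per gene, with genes called at an adjusted p under 0.05 filled and named. In this edgeR fit of all libraries the called genes are all higher in *Thop1*-KO GFP, and of the 7 detected members *Lss* alone is filled. Over all genes tested, 8.62% were called higher and 5.17% lower.

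The genes nearest to the mean profile of the members were found over the 4 libraries as those with the smallest root mean square difference of log2 CPM, each gene centred on its own mean. Outside the lists these were *LOC684797* (0.0241), *LOC103694491* (0.0454), *LOC100910678* (0.0519), *Tp53bp1* (0.0536) and *Cald1* (0.0760). *LOC684797* was at only 0.656, 1.19, 0.612 and 0.875 CPM in #1, #2, #3 and the control, so its place is uncertain. *Tp53bp1*, for example, was at 9.72 CPM in #1, 18.4 CPM in #2, 8.40 CPM in #3 and 12.2 CPM in the control. *Cyp51* was the second of all genes tested by this measure, and *Lss* was the farthest of the members, at place 11401. Each member is part of the mean profile, so its own place is not independent of it.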

How the data were processed

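Poly(A) RNA of 4 rat ESC cultures was sequenced after library preparation with a NEBNext Ultra kit. The authors cleaned the reads of adaptors and noise (FASTX toolkit) and deposited raw counts per gene and FPKM values. The submitters' processing notes name HISAT2 2.0.5 and featureCounts 1.5.0-p3. The genome build, annotation and strand setting are not given in the sources used here, so coordinates from RefSeq (GRCr8) were used for sequences only. Libraries were grouped by the genotype in their labels.

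Counts were analysed with edgeR 4.0.16 (R 4.3.3). Genes passing filterByExpr (minimum count 10) were scaled by TMM and fitted across all 15028 genes by the quasi-likelihood test, p-values were adjusted by Benjamini-Hochberg, and an adjusted p under 0.05 was a call. The test was also run on simulated counts. Their spread was estimated from these same libraries and given to the control as well, so they do not check a spread between control cultures. DESeq2 1.42.0, limma 3.58.1 on log2(FPKM + 1) or log2(FPKM + 0.1), other scalings and filters, a gene length correction and leaving out each subclone were alternatives. Counting errors cover counting alone, and totals of 15405499 to 17936544 set the depth. The 3 subclones are separate clonal lines with 1 library each, so p-values measure the spread between these libraries, its technical part included. Python 3.11.15 was used for the tables and plots.

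Beyond the 8 members, named genes are *Thop1*, genes called in the other lists, *Srebf1*, *Srebf2*, *Scap*, *Insig2* and the 5 genes nearest in profile. Others (*Pdss1*, *Msmo1*, *Hsd17b7* and markers) were picked after their values were seen. The members and lists were chosen with earlier results of these data known. Some genes of these lists are not reported here and are left out of the counts and plots.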

Additional observations from a re-analysis of the deposited data

How the results depend on the processing

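*Lss* stayed called as higher under 11 of 12 alternatives, with log2 fold changes from 1.67 to 2.13 there, and lost the call without #3. Over the fits that left out 1 subclone, the log2 fold change ranged from -1.57 to -0.38 for *Hmgcs1*, -1.57 to -0.90 for *Idi1*, -0.79 to -0.36 for *Fdft1*, -0.68 to -0.17 for *Sqle*, 1.91 to 2.14 for *Lss*, -0.44 to 0.12 for *Cyp51* and -0.089 to 0.47 for *Dhcr7*. Over the same fits, 0 to 1 members were called higher and 0 to 4 lower, 1 other enzyme higher and 0 to 2 lower, and over all genes 354 to 3096 higher and 103 to 2476 lower. *Cyp51* changed sign with library size alone (0.019) and *Dhcr7* with the gene length correction (-0.016), and neither was called under any alternative. DESeq2 called 1987 genes higher, and the rule of an unadjusted p under 0.05 with a fold of 2 called 2443 higher and 1597 lower. Each called 1 of the other enzymes higher. The highest subclone over the lowest was, with upper quartile scaling and with library size alone, 1.86 and 1.87 for *Fdft1*, 1.997 and 2.05 for *Sqle*, 2.17 and 2.17 for *Cyp51* and 2.11 and 2.16 for *Dhcr7*. With TMM these ratios were 1.75, 1.85, 2.04 and 1.95 in the same order. The counts are the same, so the ratios differ by the scaling factors alone. The cause of the other differences between settings was not tested. The median log2 fold change over all genes was 0.06 with TMM, 0.13 with library size alone, 0.17 with DESeq2, 0.19 with no filter and -0.09 with the length correction. No paired analysis was possible because the control is a single library. *Insig1*, under the floor in all libraries, was left out of these comparisons.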
